A study of Mus musculus with 6 samples.

Results

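Potassium, sodium and HCN channel genes were described here across a list of differentially methylated regions in mouse blastocysts. Members were all annotation entries whose gene name begins with Kcn, with Scn and a digit, or with Hcn and a digit, in any cytosine context. That rule took 125 of 18732 entries, which collapsed to 92 of 9707 distinct regions in 44 of 4040 gene names. Levels came from single-embryo bisulfite sequencing, in which an unmethylated cytosine is converted and a methylated one is still read as cytosine. The depressed group was 3 embryos grown from C57BL/6 fertilised eggs that were microinjected with sperm small RNAs of mice with stress-induced depression. The normal group was 3 embryos grown from eggs that received RNA of the same kind from normal males' sperm. RNA was injected at 2 ng/µl in both groups, and whole embryos were taken at E4.5, about 108 h later. The strain of the sperm donors, the sex of the embryos and whether embryos shared a donor are unknown here. For each region the authors' deposited table holds 1 mean level per group, with 0 columns of values per embryo and no read depth. No spread between embryos, no test between the groups and no interval for a level could therefore be had, and each level below is the authors' group mean. A whole late blastocyst mixes several lineages, so a change in their shares and a change within cells cannot be told apart. All 92 regions are on the list because the authors called them different, so their differences are descriptions.

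Potassium channels let potassium leave the cell and so set the resting potential and end the action potential, while voltage-gated sodium channels carry its upstroke. HCN channels open on hyperpolarisation and pace rhythmic firing. The genes are used mostly in neurons, muscle and endocrine cells. In mammals DNA methylation sits mainly at CG dinucleotides; methylation in the CHG and CHH contexts, where H is any base but G, is scarce in most cells.

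RefSeq promoter windows, each from 250 bases before to 50 bases after a start site (GRCm38.p6, the assembly also called mm10), were at hand for 30 of the 44 genes. Printed here are 4 of them, to show the starts that listed regions came nearest to: the 2 genes with the nearest lower and the 2 with the nearest higher region, by the region's centre. CG dinucleotides are in capitals.
Kcng3: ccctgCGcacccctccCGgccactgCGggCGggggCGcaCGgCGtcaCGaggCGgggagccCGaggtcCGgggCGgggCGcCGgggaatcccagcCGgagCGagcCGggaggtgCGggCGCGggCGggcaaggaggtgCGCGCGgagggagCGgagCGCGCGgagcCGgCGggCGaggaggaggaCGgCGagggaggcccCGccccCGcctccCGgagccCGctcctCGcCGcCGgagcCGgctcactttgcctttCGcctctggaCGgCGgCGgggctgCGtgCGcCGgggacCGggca
Kcnk1: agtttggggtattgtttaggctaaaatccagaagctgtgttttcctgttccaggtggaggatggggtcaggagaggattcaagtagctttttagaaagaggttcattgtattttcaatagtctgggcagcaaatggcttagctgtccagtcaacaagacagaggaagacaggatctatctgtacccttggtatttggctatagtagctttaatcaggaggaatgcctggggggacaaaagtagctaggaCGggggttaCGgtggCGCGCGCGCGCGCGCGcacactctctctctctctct
Kcnab1: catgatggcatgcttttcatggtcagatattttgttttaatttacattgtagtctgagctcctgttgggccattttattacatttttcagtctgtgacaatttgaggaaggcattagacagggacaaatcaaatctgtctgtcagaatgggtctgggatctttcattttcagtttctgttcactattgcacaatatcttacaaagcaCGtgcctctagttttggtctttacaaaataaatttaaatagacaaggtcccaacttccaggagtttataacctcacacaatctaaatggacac
Kcnf1: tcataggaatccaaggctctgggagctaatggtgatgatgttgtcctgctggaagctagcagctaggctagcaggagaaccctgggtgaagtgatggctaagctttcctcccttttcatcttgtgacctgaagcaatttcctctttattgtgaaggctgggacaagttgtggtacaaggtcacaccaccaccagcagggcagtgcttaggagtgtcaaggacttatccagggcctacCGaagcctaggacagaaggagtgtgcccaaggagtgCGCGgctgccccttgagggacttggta
The window of Kcng3 (chr17:83631846-83632145, minus strand) holds 49 CGs, a number reached by 1.02% of the 32851 RefSeq promoter windows. That of Kcnk1 (chr8:125994852-125995151, plus strand, a start inside the RefSeq span of the gene) holds 10, mostly in a run of alternating C and G beside the start. The windows of Kcnf1 (chr12:17176839-17177138, minus strand) and Kcnab1 (chr3:65187853-65188152, plus strand, an internal start of the gene) hold 3 and 1, where the median of all windows is 7. In each case the listed region lies downstream of the printed window. Its near edge is 441 bases from the start in Kcng3, 439 in Kcnk1, 526 in Kcnab1 and 805 in Kcnf1. Of the 44 windows of the 30 genes, 0 overlapped a listed region of the gene.

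Channel genes followed the direction of the whole list in the CG and CHG contexts. All 5 of their CG regions were lower in the depressed group, where 98.5% of all listed CG regions were lower and 1.48% higher. Of the 5, 3 lay on chromosomes 9 or 10, as did 58.0% of all listed CG regions. Of 28 CHG regions, 25 were lower and 3 were higher; higher regions made up 10.7% (95% exact interval over regions 2.27 to 28.2%), against 8.97% of all listed CHG regions, of which 91.0% were lower. Of 59 CHH regions, 38 were higher and 21 lower, so 64.4% were higher (50.9 to 76.4%), against 79.6% of the whole list and 72.7% of listed CHH regions annotated to an exon, UTR, promoter or intron. Lower ones made up 20.4% of the whole CHH list and 27.3% of its gene-annotated regions. These intervals count regions and say nothing of embryos. The CHH majority depended on small differences: with a difference of at least 10 percentage points asked, 6 CHH regions were higher and 19 lower. No share of the whole list under that filter stands beside these counts, so they are not set apart from the list.

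In normal embryos, lower CHG and lower CHH regions had similar median levels. In depressed embryos the lower CHG median was below the lower CHH one. Higher CHG and higher CHH regions had unlike medians, those of CHG resting on 3 regions. Lower CG regions stood between 2.87 and 13.3% in depressed embryos and between 59.4 and 75.6% in normal embryos. The median of the lower CHG regions was 0.0990% (0.0298 to 3.48%) in depressed embryos, against 38.6% (9.59 to 75.03%) in normal embryos, where all lower CHG regions of the list had medians of 0.174% in depressed and 30.9% in normal embryos. In the lower CHH regions the medians were 0.659% in depressed against 36.4% in normal embryos, beside 0.637% in depressed and 24.9% in normal embryos over the whole list. Depressed levels of the lower CHH regions ran from 0.198 to 90.002%, since 2 of them were high in both groups. Normal-group levels of this size outside CG are far above those usual in mammalian cells, and group means with no depth do not show which embryos they come from or whether 1 library carries them. The 3 higher CHG regions had medians of 22.04% in depressed and 0.162% in normal embryos. The 38 higher CHH regions moved within low levels, with medians of 5.08% in the depressed group (2.37 to 25.9%) and 0.854% in the normal group (0.152 to 2.75%). Their counterparts in the whole list had medians of 4.76% in depressed and 0.769% in normal embryos.

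**Figure D1:**
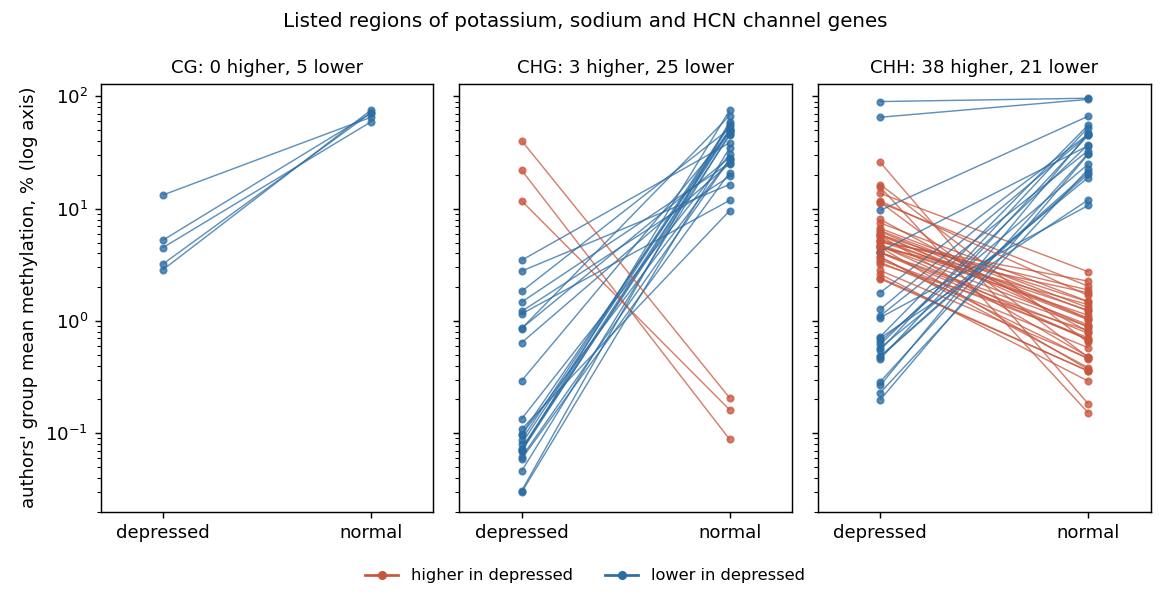
Authors' group mean methylation in percent (log axis) of every listed region of the channel genes, 1 line a region, with the depressed group on the left and the normal group on the right of each panel, by cytosine context. Lower CG and CHG regions have normal levels of at least 9.59%, while higher CHH regions have normal levels of at most 2.75%; 2 CHH lines at the top are high in both groups.

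Of 112 protein-coding genes of these families in RefSeq, 44 had a listed region (39.3%), against 18.0% of all 21900 protein-coding genes. Genes with a region were long, in these families as elsewhere. The median length was 94.9 kb for channel genes with a region and 20.6 kb for those without, beside 57.1 and 13.8 kb over all genes. Within each length class the share was again above that of all genes. Among genes over 100 kb, 21 of 31 channel genes had a region (67.7%), against 55.9% of all genes of that length. From 20 to 100 kb it was 16 of 40 (40.0%) against 21.7%, and under 20 kb 7 of 41 (17.1%) against 7.79%. By context, 19 channel genes (17.0%) had a lower CHG region, against 6.40% of all genes. A lower CHH region was listed for 16 (14.3% against 5.37%), a higher CHH region for 24 (21.4% against 9.11%), and a lower CG region for 3 (2.68% against 2.54%). A higher CHG region was listed for 3 as well (2.68% against 0.758%), and a higher CG region for 0, against 0.0411% of all genes. These shares by context are not matched for length. For higher CHH regions the share of channel genes was above that of all genes in the 2 longer classes. It was 17 of 31 (54.8%) against 41.2% over 100 kb and 6 of 40 (15.0%) against 9.70% from 20 to 100 kb. Under 20 kb it was 1 of 41 (2.44%), near the 2.15% of all genes. Lower CHG regions had shares above those of all genes in each class, on small counts. In that order they were 8 of 31 (25.8%) against 15.1%, 8 of 40 (20%) against 7.82% and 3 of 41 (7.32%) against 3.70%. Lower CHH regions did so too, at 7 of 31 (22.6%) against 14.8%, 5 of 40 (12.5%) against 6.01% and 4 of 41 (9.76%) against 3.04%. For lower CG regions the order turned round over 100 kb, with 1 of 31 channel genes (3.23%) against 7.95% of all genes. It did so under 20 kb as well (0 of 41 against 0.911%), and for higher CHG regions over 100 kb (0 of 31 against 1.48%). No test was made of these shares. The members were chosen with earlier results of these data known, so the shares are descriptions of the list. None of the 4 non-coding transcripts of these loci, such as Kcnq1ot1, had a region.

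Direction per gene was counted for channel genes only, so no share over all listed genes stands beside the counts that follow. In 17 genes all regions were lower in the depressed group, in 17 all were higher, and 10 genes held both, among them Kcnb2, Kcnh1, Kcnh5, Kcnq5, Kcnma1, Kcnj6, Kcnj10, Kcnk1 and Scn3b. In these 9 a higher CHH region was joined by 1 or more lower regions. A single region was listed for 19 genes, and the most regions of a gene were 6, as in Kcnma1.

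**Figure D2:**
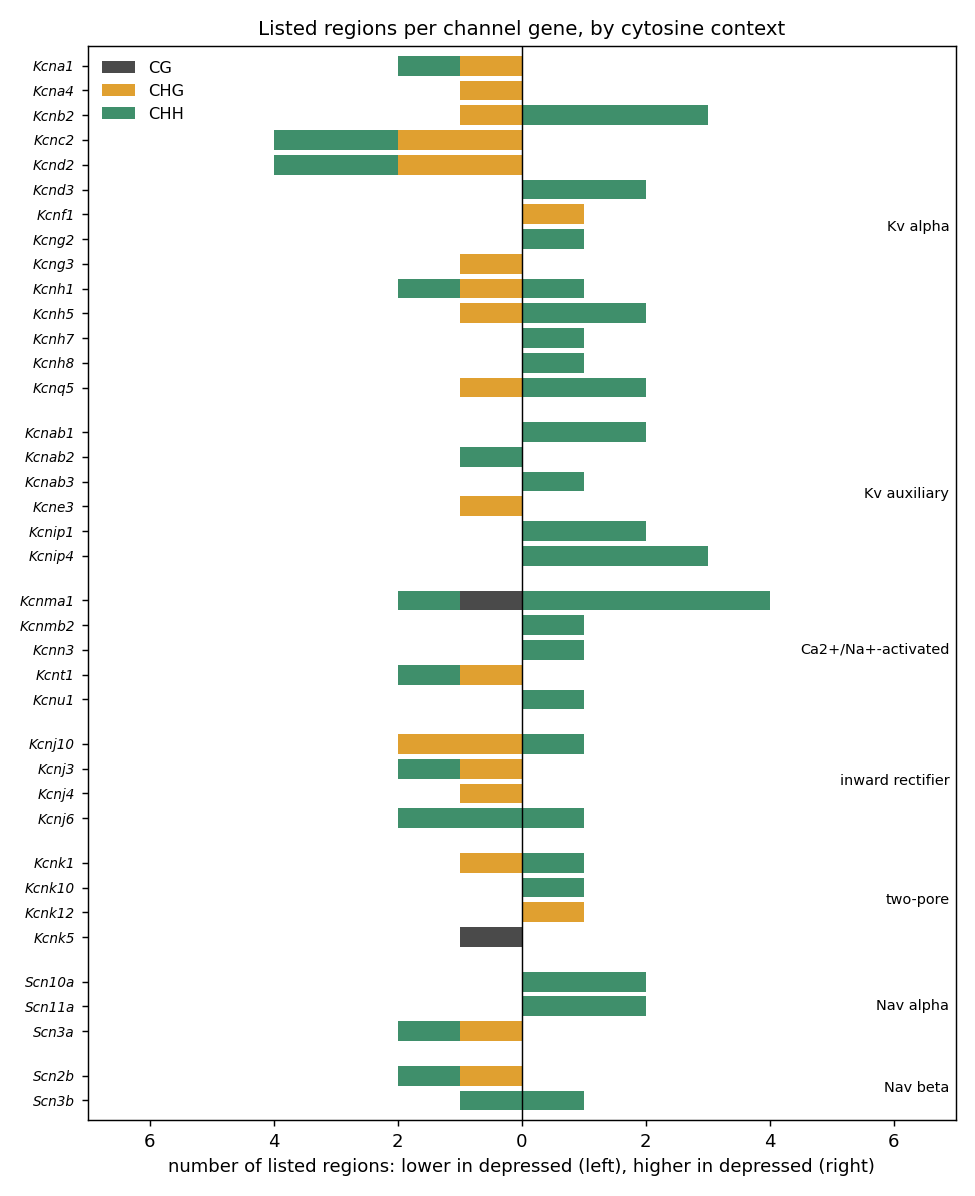
Number of listed regions per channel gene, lower in the depressed group to the left of 0 and higher to the right, coloured by cytosine context and grouped by family, for 38 of the 44 genes. Kcnma1 has 4 higher and 2 lower regions, Kcnd2 and Kcnc2 have 4 lower ones each, and Kcnip4 has 3 regions, all higher.

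In the CHH context, lower and higher regions lay in different parts of the genes, as they did in the whole list. Of the 38 higher CHH regions, 35 lay in introns only (92.1%), 2 in a promoter without exon and 1 in an exon. By contrast exons or UTRs were touched by 16 of 21 lower CHH regions (76.2%) and by 17 of 25 lower CHG regions (68.0%). Over all listed regions annotated to genes, exons or UTRs were touched by 3.54% of higher CHH, 71.7% of lower CHH and 84.5% of lower CHG regions. All 3 higher CHG regions of the channel genes touched an exon or UTR, beside 90.7% over that list, so in the CHG context both directions lay mostly in exons or UTRs. The 3′ UTR was listed for 9 lower CHH and 7 lower CHG regions and for 0 higher regions of the channel genes. That is 42.9% of lower CHH and 28.0% of lower CHG regions, beside 46.8 and 48.5% of those annotated to genes in the list, where 1.09% of higher CHH and 14.3% of higher CHG regions had a 3′ UTR. All but 1 of the 92 regions overlapped the RefSeq span of their gene, and the exception was the promoter region of Kcnj10. Among regions of channel genes with a known start site, 5 of 16 lower CHG, 3 of 11 lower CHH and 3 of 30 higher CHH regions were centred within 2 kb of one. Distances to start sites were not computed for the whole list, so these counts have no share beside them.

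**Figure D3:**
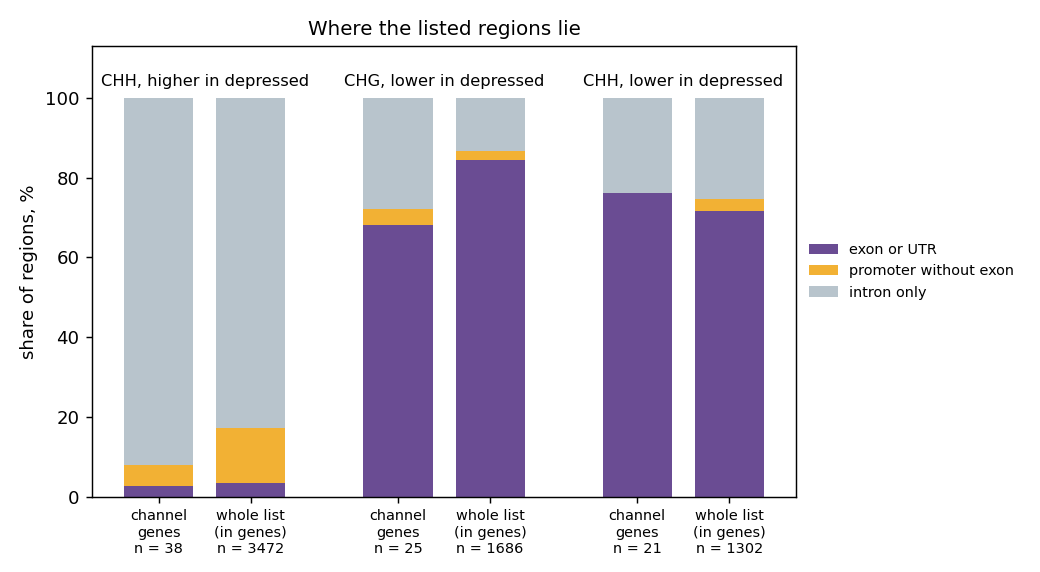
Share of regions in percent that touch an exon or UTR, lie in a promoter without exon, or lie in introns only, for channel genes and beside them for all listed regions annotated to genes. In channel genes 92.1% of higher CHH regions were intronic, while 68.0% of lower CHG and 76.2% of lower CHH regions touched an exon or UTR.

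Pore-forming subunits of voltage-gated potassium channels were the largest family, with 17 of 40 genes and 41 regions. They carried 16 lower and 1 higher CHG region, 11 lower and 13 higher CHH regions, and no CG region. Over the list 91.0% of CHG regions were lower, while 79.6% of all CHH regions and 72.7% of those annotated to genes were higher.

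Lower regions of this family lay in exons and UTRs as well as introns of genes for neuronal channels. Kcnd2, an A-type channel gene whose current slows the approach to the next spike, carried overlapping CHG and CHH regions at 2 places. In the 5′ UTR (chromosome 6, CHH region 21216143 to 21216390) the CHH level was 0.198% in depressed against 30.4% in normal embryos and the CHG level 0.861% in depressed against 28.5% in normal embryos. In an intron the levels were 0.267% in depressed against 46.9% in normal embryos for CHH and 0.0990% in depressed against 50.4% in normal embryos for CHG. The same double arrangement was found in Kcnc2, a fast delayed rectifier of rapidly firing neurons. Its exonic CpG island had 0.706% in depressed against 11.97% in normal embryos for CHH (chromosome 10, 112271738 to 112272074) and 1.16% in depressed against 11.9% in normal embryos for CHG. An intron of Kcnc2 had 0.724% in depressed against 55.5% in normal embryos for CHH and 0.0874% in depressed against 56.7% in normal embryos for CHG.

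The Shaker-type gene Kcna1 had a CpG island region in its exon (chromosome 6, 126643015 to 126643225 for CHG). It stood at 3.48% in depressed against 38.6% in normal embryos for CHG, and at 4.15% in depressed against 36.4% in normal embryos for CHH, the highest depressed levels among the exonic lower regions of the family. Its relative Kcna4 was at 0.0462% in depressed against 46.7% in normal embryos in an exonic CHG region. Kcng3, which encodes a subunit that modifies delayed rectifiers, was at 2.78% in depressed against 16.4% in normal embryos in a CHG region of 145 bp and 15 cytosines in an exonic CpG island, downstream of the promoter printed above. Lower CHG regions in introns alone were also listed for Kcnb2 (0.0693% in depressed against 49.1% in normal embryos), Kcnh5 (0.0307% in depressed against 59.8% in normal embryos), Kcnh1 (0.0592% in depressed against 20.97% in normal embryos) and Kcnq5 (0.0972% in depressed against 27.5% in normal embryos). The 7 intronic CHG regions of the family had depressed levels of at most 0.109%.

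The 13 higher CHH regions of the family were all intronic and fell on 8 genes. Of all higher CHH regions annotated to genes, 82.7% lay in introns only. Kcng2, another modifier subunit gene, had the strongest statistic, in a region of 426 bp with 251 cytosines (chromosome 18, 80357158 to 80357583). Its level was 4.502% in depressed against 1.78% in normal embryos. Kcnb2, a delayed rectifier gene, carried 3 such regions, the strongest at 5.20% in depressed against 1.89% in normal embryos and the others at 5.40% in depressed against 1.03% in normal embryos and 2.61% in depressed against 0.292% in normal embryos. Kcnh5, of the ether-à-go-go family, carried 2, at 4.67% in depressed against 0.928% in normal embryos and 5.11% in depressed against 1.247% in normal embryos. The highest level of the 13, at 16.4% in depressed against 0.644% in normal embryos, lay in Kcnh7, also of that family, over an IMPB_01 satellite repeat. In their relatives Kcnh1 and Kcnh8 the levels were 3.74% in depressed against 0.385% in normal embryos and 5.86% in depressed against 1.48% in normal embryos. Kcnd3, the A-type relative of Kcnd2, had 2 higher regions (3.70% in depressed against 0.461% in normal embryos and 5.79% in depressed against 1.04% in normal embryos), each over a repeat, where Kcnd2 had 4 lower ones. That contrast between Kcnd2 and Kcnd3 was noticed in these values and not tested. Kcnq5, a gene of the M-type channel family that damps repeated firing, had higher regions at 2.37% in depressed against 0.359% in normal embryos and 7.47% in depressed against 1.495% in normal embryos. The only higher CHG region of the family lay in an exonic CpG island of Kcnf1, a silent modifier subunit gene (chromosome 12, 17175969 to 17176083; 10 cytosines), at 22.04% in depressed against 0.0885% in normal embryos.

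Auxiliary subunits of voltage-gated potassium channels had regions in 6 of 13 genes. Of their CHH regions 8 were higher in the depressed group and 1 was lower. Over the list, 79.6% of all CHH regions and 72.7% of those annotated to genes were higher. The 1 CHG region was lower, as were 91.0% of all listed CHG regions. Kcnab3, a cytoplasmic beta subunit gene, was the only channel gene with a higher CHH region in an exon. This region covered promoter, 5′ UTR and CpG island (chromosome 11, 69326503 to 69326715; 60 cytosines) at 15.6% in depressed against 0.152% in normal embryos, the lowest normal level of the 38. Kcnab1, of the same subfamily, had the highest depressed level of them, 25.9% in depressed against 0.183% in normal embryos, over an IMPB_01 repeat just downstream of the internal start printed above (chromosome 3, 65188629 to 65188719). A second Kcnab1 region was at 2.82% in depressed against 0.468% in normal embryos. The calcium-binding KChIP genes Kcnip1 and Kcnip4, whose products join A-type channels, carried 2 and 3 intronic regions, between 3.33 and 8.05% in depressed and between 0.481 and 1.06% in normal embryos. On the lower side were the 3′ UTRs of Kcnab2 (CHH, 0.576% in depressed against 18.9% in normal embryos) and Kcne3, a single-span subunit gene (CHG, 0.857% in depressed against 67.5% in normal embryos).

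Among calcium- and sodium-activated potassium channels, 5 of 12 genes had regions. Kcnma1, which encodes the large-conductance BK channel, carried 6, all in introns. Its 4 higher CHH regions stood at 13.7, 11.3, 4.79 and 4.69% in the depressed group, against 2.75, 2.04, 1.12 and 0.681% in the normal group, in the same order. Between them lay a lower CHH region of 142 bp at 9.67% in depressed against 66.6% in normal embryos and, further on, a lower CG region (chromosome 14, 23569128 to 23569244; 10 CpGs) at 4.51% in depressed against 59.4% in normal embryos. Kcnma1 was the only channel gene with regions of both CG and CHH. Kcnmb2, a BK beta subunit gene, had 4.10% in depressed against 0.780% in normal embryos. Kcnn3, a small-conductance calcium-activated channel gene, had 5.96% in depressed against 0.882% in normal embryos in a region annotated as promoter and intron, and Kcnu1, a channel gene of sperm, had 3.51% in depressed against 0.711% in normal embryos, all CHH. The Kcnn3 region was centred 142100 bases downstream of the nearest start site at hand, at 93.3% of the gene's length from its 5′ end. The 3′ UTR of Kcnt1, a sodium-activated channel gene, was lower for CHH (1.11% in depressed, 32.9% in normal) and for CHG (0.0613% in depressed, 27.4% in normal).

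Inward rectifiers had regions in 4 of 15 genes, with 4 lower CHG, 3 lower CHH and 2 higher CHH regions. Over the list 91.0% of CHG regions were lower and 79.6% of CHH regions higher. Kcnj3, a subunit gene of G protein-gated channels, had a CHH region of 492 bp in its exon and CpG island (chromosome 2, 55437342 to 55437833) at 1.79% in depressed against 46.1% in normal embryos, with a CHG region inside it at 1.84% in depressed against 51.7% in normal embryos. Kcnj6, a subunit gene of the same channel type, had an exonic CHH region at 0.659% in depressed against 24.9% in normal embryos, a higher intronic one at 6.40% in depressed against 1.22% in normal embryos, and a lower intronic one that was high in both groups. Kcnj10, the main inward rectifier gene of glia, was lower at 2 exonic CHG regions (0.0721% in depressed against 44.9% in normal embryos and 0.134% in depressed against 30.6% in normal embryos). Its promoter CHH region, centred upstream at -1210.5 bases from the start, was higher at 2.43% in depressed against 0.359% in normal embryos. Kcnj4 was lower at an exonic CHG region, with 1.22% in depressed against 19.4% in normal embryos.

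Tandem-pore channels, which carry background potassium currents, had regions in 4 of 14 genes. Kcnk1 was lower at an exonic CpG island in the CHG context (chromosome 8, 125995541 to 125995688; 17 cytosines), with 1.48% in depressed against 25.4% in normal embryos, and higher at an intronic CHH region, with 5.05% in depressed against 2.26% in normal embryos. Kcnk12 was higher at a CHG region of 23 cytosines in an exonic CpG island (chromosome 17, 87746263 to 87746380), with 11.8% in depressed against 0.162% in normal embryos. Kcnk5 was lower at a CG region of its 3′ UTR (chromosome 14, 20141130 to 20141271; 4 CpGs), with 5.26% in depressed against 71.2% in normal embryos. Its CG statistic ranked 867 of 880, near the weakest listed. Kcnk10, a mechanosensitive member, was higher at an intronic CHH region, with 4.54% in depressed against 0.370% in normal embryos.

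Sodium channel alpha subunits had regions in 4 of 10 genes. The genes of pain-sensing neurons, Scn10a and Scn11a, had 2 higher intronic CHH regions each and no other. Over the list, 72.7% of CHH regions annotated to genes were higher, and 82.7% of those higher ones lay in introns only. The Scn10a regions were at 4.08% in depressed against 0.895% in normal embryos and 11.7% in depressed against 1.69% in normal embryos. Those of Scn11a were at 6.69% in depressed against 1.31% in normal embryos and 4.62% in depressed against 1.40% in normal embryos. In the chromosome 2 cluster of Scn1a, Scn2a, Scn3a, Scn7a and Scn9a, only Scn3a had regions. Scn3a, used mainly in the embryonic brain, had overlapping exonic regions at 0.548% in depressed against 52.8% in normal embryos for CHH (65461025 to 65461112) and 0.0731% in depressed against 50.4% in normal embryos for CHG.

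Sodium channel beta subunits, single-span proteins that bind the alpha subunits, had regions in 3 of 4 genes. Scn2b was lower in its 3′ UTR and had the strongest statistic of the 59 CHH regions of channel genes, over 1512 bp with 127 cytosines (chromosome 9, 45127166 to 45128677), at 0.618% in depressed against 37.2% in normal embryos. It ranked 162 of 6943 CHH regions, and an overlapping CHG region of 1177 bp stood at 0.0806% in depressed against 54.9% in normal embryos. Scn3b was also lower for CHH in its 3′ UTR, at 0.229% in depressed against 22.5% in normal embryos. An intron of Scn3b held a higher CHH region at 3.22% in depressed against 0.825% in normal embryos. Of the 4 HCN genes, 1 had a region.

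Lower CHG and CHH regions often shared bases. In 9 genes 12 of the 25 lower CHG regions overlapped 13 of the 21 lower CHH regions, and all 13 overlapping pairs had the same direction. Over the whole list, 48.9% of lower CHG regions overlapped a CHH region and 54.3% of lower CHH regions a CHG region, beside 48.0 and 61.9% here. The normal level was higher for CHG than for CHH in 9 of the 13 pairs. The gap was wide in Scn2b, where CHG stood at 54.9% and CHH at 37.2% in the normal group. It was narrow in the intron pair of Kcnd2, at 50.4% for CHG and 46.9% for CHH. The order was reversed in Scn3a (CHG 50.4%, CHH 52.8%) and in the 5′ UTR pair of Kcnd2 (CHG 28.5%, CHH 30.4%). No CHG or CHH region of a channel gene overlapped a listed CG region, where the whole list has such an overlap for 2.04% of lower CHG, 2.05% of lower CHH and 0.0181% of higher CHH regions. The contexts count different cytosines, but in these pairs they were read from the same libraries over shared stretches. They are therefore not independent evidence of a difference.

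Partner genes of the channels were taken as a list of 44 named genes, chosen with earlier results of these data known. Of these, 42 were found in the reference and 21 had a region (50.0% of the 42, against 18.0% of all genes), 82 regions in all. Lower CHG regions were listed for 16 (38.1% against 6.40%), higher CHH regions for 11 (26.2% against 9.11%) and lower CHH regions for 9 (21.4% against 5.37%). Lower CG regions were listed for 2 genes (4.76% against 2.54%), with 9 of the 10 regions in Ank3, a scaffold gene of sodium channels, and higher CHG regions for 0. Ank3 lies on chromosome 10, and chromosomes 9 and 10 hold 510 of all 880 listed CG regions (58.0%). The partner genes too were long, with a median of 64.6 kb against 17.1 kb for all protein-coding genes, and the shares are not matched for length. The HCN partner gene Pex5l was lower in its 3′ UTR, at 0.809% in depressed against 26.6% in normal embryos for CHH and at 0.255% in depressed against 26.9% in normal embryos for CHG. Dpp6, an auxiliary subunit of A-type channels, was lower in the 3′ UTR at 0.222% in depressed against 29.6% in normal embryos for CHH and 0.850% in depressed against 30.9% in normal embryos for CHG. In introns Dpp6 also had 2 higher CHH regions, at 3.67% in depressed against 0.977% in normal embryos and 4.04% in depressed against 1.11% in normal embryos. Another intronic CHH region of Dpp6 was lower, at 0.462% in depressed against 2.69% in normal embryos. Its relative Dpp10 had 3 regions, all higher intronic CHH, between 3.51 and 11.8% in depressed and between 0.307 and 1.38% in normal embryos. Atp1b2, a beta subunit gene of the sodium-potassium pump, was lower at both ends of the gene in CHG and CHH, with 0.184 to 0.579% in depressed against 34.5 to 43.9% in normal embryos for CHH. Fgf14, which binds sodium channels, had 3 lower CHG, 2 lower CHH and 6 higher CHH regions, all in introns.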

How the data were processed

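Reads of 6 single-embryo libraries, 3 a group, were processed by the authors with Trim Galore 0.3.3, Bismark and SAMtools with mm10 as the mouse build, according to the submitters' processing notes. The tool that called the regions, the thresholds used, any filter on coverage and how values of embryos were merged were "not given in the sources used here". Per the file headers, the 1 deposited table gives each group's mean methylation as a fraction, shown here in percent, a difference score and a region statistic score, and a count of cytosines per region. The deposited difference equalled depressed minus normal within 1e-09 in all 9707 regions, and the statistic had the opposite sign in 2 regions, 0 of them in channel genes. Depth and values per embryo are unknown, so no test, interval of a level or coverage filter was possible.

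Entries were collapsed by chromosome, start, end and context with pandas 2.3.3 in Python 3.11.15. Intervals are 95% exact binomial (scipy 1.17.1), over regions. Gene lengths, spans and promoter sequences came from RefSeq (GRCm38.p6). Of 4040 gene names in the table, 3940 matched a protein-coding symbol or a unique synonym, channel genes included. Families were assigned by symbol. Named regions were every CG region, the 3 strongest by statistic per family, context and direction, all promoter, 5′ UTR or CpG island regions, and the genes with most regions; others were added for completeness. The members and lists were chosen with earlier results of these data known. Collapsing, direction, place and overlap were tested on simulated data. Alternatives covered difference size, number of cytosines, statistic, chromosomes 9 and 10, overlap with the gene, sign and unit of counting. Some genes of these families enter the counts and ranges but are not reported here by name.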

Additional observations from a re-analysis of the deposited data

How the results depend on the processing

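The settings below were applied to channel genes, with no share of the whole list beside them. The share of higher CHH regions moved from 64.4% to 24.0% with a difference of at least 10 percentage points asked, since 6 of 38 higher but 19 of 21 lower regions reach that size. It moved to 78.1% with a statistic at or above the median of its context, a filter that also left 28 of the 44 genes; the cause was not tested. The 10-point difference left 33 genes. In the other settings run, the CHH share lay between 63.8 and 66.7% and the number of genes between 38 and 44. The share of higher CHG regions lay between 7.69 and 16.7% and that of higher CG regions stayed at 0% in every setting tried. No paired analysis was possible because the deposited table holds group means only, and for the same reason no embryo could be left out. Levels rest on unknown depth, and short regions, such as the 52 bp CHG region of Kcnc2 with 10 cytosines, rest on few sites.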

Other observations

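In 2 lower CHH regions of channel genes both groups were at levels rarely seen in this context in the list. An intron of Kcnj6 (chromosome 16, 94926616 to 94926874; 89 cytosines) stood at 90.002% in depressed against 96.4% in normal embryos, and an intron of Kcnh1 (chromosome 1, 192454047 to 192454126; 41 cytosines) at 65.2% in depressed against 94.2% in normal embryos. No repeat was listed at either. In the whole list 123 of 6943 CHH regions (1.77%) were above 50% in both groups, 84 of them lower and 39 higher in the depressed group.

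Repeats were listed for 15 of the 38 higher CHH regions of channel genes, against 40.7% of all higher CHH regions annotated to genes. The 4 over IMPB_01, a satellite repeat, lay in Kcnab1, Kcnh7, Kcnip1 and Kcnh8, with levels between 5.86 and 25.9% in depressed and between 0.183 and 1.48% in normal embryos. The other 34 lay between 2.37 and 15.6% in depressed and between 0.152 and 2.75% in normal embryos. These ranges overlap, and no test was made. No share of the whole list over IMPB_01 stands beside the count of 4, so it is not set apart from the list.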
